A study of Rattus norvegicus with 8 samples.

Results

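The matrix metalloproteinases (MMPs), the ADAM and ADAMTS proteases and the tissue inhibitors of metalloproteinases (TIMPs) were examined in rat sciatic nerve. Members were taken by gene symbol: Mmp, Adam or Adamts followed by a digit, and Timp1 to Timp4. Of 71 such genes, 55 reached a normalized count of at least 10 in at least 2 libraries, out of 16478 genes that did so and 32545 genes listed. They were 17 of 22 MMPs, 15 of 26 ADAMs, 19 of 19 ADAMTSs and 4 of 4 TIMPs. The study compared peripheral nerve allografts (PNAs) joined with polyethylene glycol (PEG-fused PNAs, "PEG", n = 3 animals), allografts operated on in the same way but without PEG (negative control PNAs, "NC", n = 3 animals) and unoperated sciatic nerves ("Unop", n = 2 animals). All were outbred female Sprague Dawley rats (Envigo) aged 3 to 6 months. In both graft groups a segment of sciatic nerve from another rat, neither tissue-matched nor protected by immunosuppression, was washed in hypotonic Plasmalyte A and methylene blue, sutured into a gap in the host nerve and excised at 14 days after surgery. PEG and NC share the transection, the allogeneic donor tissue and the solutions, whereas Unop nerves had none of these. The grafts hold donor and host cells together, and the whole-tissue RNA does not separate them.

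MMPs are zinc proteases that cut collagens, proteoglycans and many signalling proteins outside the cell. ADAMs are mostly membrane proteases that release the outer parts of receptors and growth factors. ADAMTSs are their secreted relatives, which cut aggrecan and versican (proteoglycanases), trim procollagen or act on other matrix proteins. TIMPs bind the active site of these enzymes. In injured peripheral nerve such proteases are known to open the blood-nerve barrier, clear myelin and matrix, and remodel the paths along which axons and Schwann cells grow.

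The 8 libraries held between 32472925 and 39959620 reads on genes. Values below are normalized counts, that is, reads divided by a size factor for each library (0.800 to 1.12). They are not corrected for gene length, so levels are compared between libraries and never between genes. Schwann cell transcripts marked the tissue as nerve in every library, with a summed level of 6 markers between 27054 and 63322 in NC, 73350 and 82126 in PEG, and 1331217 and 1566558 in Unop. Markers of skeletal muscle fibres (5, all present in every library) summed to 682149 in NC 1 and 251182 in NC 3, against 11590 in NC 2, 2832 to 16504 in PEG and 5947 to 35170 in Unop. NC 1 and NC 3 thus stood apart, and the study describes muscle and connective tissue adhering to NC PNAs that could not be trimmed away in full.

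The first comparison asked how the proteases and inhibitors differed between allografts with and without PEG. In PEG-fused PNAs 20 of the 55 members were higher than in NC PNAs and 1 was lower at an adjusted p under 0.05 (limma on log2(normalized count + 1), Benjamini-Hochberg over all 16478 genes tested). That is 36.4% of the members called higher, where 15% of all tested genes were called higher and 13.9% lower. Of the 20, 10 were ADAMTSs, 6 were MMPs, 3 were ADAMs and 1 was a TIMP. The lower member, Adam18, passed the count filter through NC libraries alone, so the filter favours its call. The median log2 fold change of the members was 0.56, beside 0.00 over all tested genes. With the study's further demand of a log2 fold change above 1, 10 members were higher (4.41% of tested genes) and 1 was below -1 (7.14%). PEG and NC libraries did not overlap in 28 members that were higher (25.6% of tested genes) and 2 that were lower in PEG (23.3%). The 28 include Mmp10, which passed the count filter only with the help of PEG libraries, so the filter favours its place there. In tissue RNA, more cells of a type and more RNA per cell cannot be told apart. With NC 2, the library low in muscle RNA, as the only NC library and assumed to vary like the other groups, 17 members were called higher, beside 1685 of the 16478 tested genes. Of the 20 members, 12 were called in all 18 other fits run and 13 without each library in turn.

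**Figure D1:**
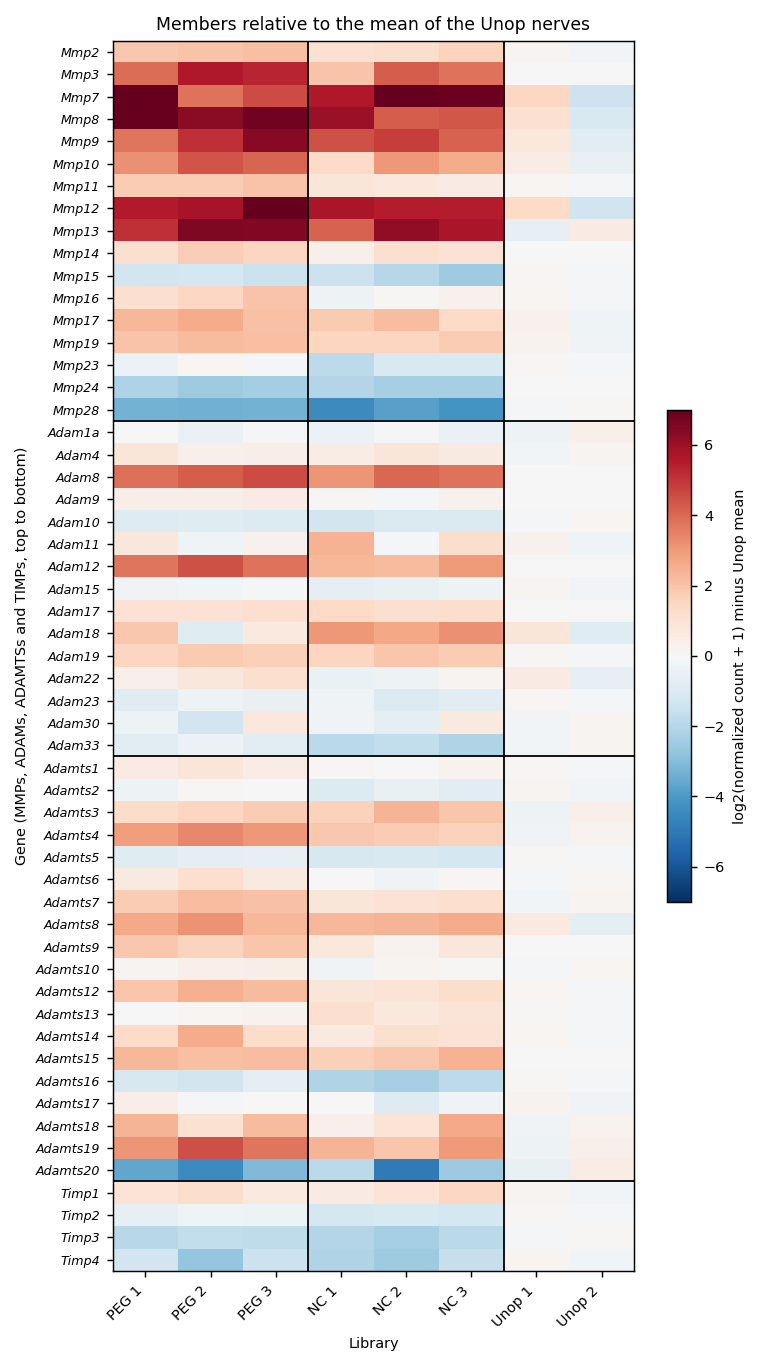
Each row is a member and each column a library. The colour gives log2(normalized count + 1) minus the mean of the Unop nerves, so red is above and blue below unoperated nerve. Mmp3, Mmp7, Mmp8, Mmp9, Mmp12 and Mmp13 were red in all 6 grafts, whereas Mmp28, Mmp24, Adamts20, Timp3 and Timp4 were blue in all 6.

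Of the 20 members higher in PEG, 10 were ADAMTSs, the family with the highest share. Adamts4, an aggrecanase that also cuts versican and brevican, had normalized counts of 2035, 2726 and 2188 in PEG, 1012, 909 and 816 in NC, and 225 and 320 in Unop. No PEG library overlapped an NC library, and no NC library overlapped Unop. The difference between PEG and NC was 2.53-fold (log2 fold change 1.34 ± 0.17 SE, adjusted p = 0.00131, limma). Adamts9, a versican-cutting protease with a close relative in Adamts20, stood at 3057, 2491 and 3165 in PEG, 1390, 996 and 1439 in NC, and 803 and 862 in Unop. Again the 3 groups did not overlap, and PEG was 2.29-fold above NC (1.20 ± 0.16, adjusted p = 0.00151). Adamts1, another proteoglycanase, had a mean of 3004 ± 398 (SD, n = 3) in PEG, 2044 ± 184 in NC and 1908 ± 151 (n = 2) in Unop. It was called higher in PEG, and its NC and Unop libraries overlapped. Adamts5, the other main aggrecanase, was 720, 811 and 876 in PEG and 600, 612 and 552 in NC, below 1352 and 1238 in Unop. It was called higher in PEG than NC, but not without PEG 2 (adjusted p = 0.0561) or PEG 3 (0.0610). The remaining proteoglycanases, Adamts8, Adamts15 and Adamts20, overlapped between PEG and NC and were not called in limma on all 8 libraries. Adamts15 was called higher in PEG without NC 3 (adjusted p = 0.0332).

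Adamts12 and Adamts7, which are closely related and cut cartilage oligomeric matrix protein, moved in the same direction. Adamts12 was 3378, 4912 and 4166 in PEG, 1611, 1738 and 2057 in NC, and 964 and 810 in Unop. That was a 2.29-fold difference between the graft groups (log2 fold change 1.19 ± 0.15, adjusted p = 0.00148, limma). Adamts7 was 895, 1171 and 1091 in PEG, 480, 534 and 599 in NC, and 232 and 298 in Unop. Its libraries were thus ordered PEG, NC, Unop without overlap, with PEG 1.95-fold above NC (0.97 ± 0.15, adjusted p = 0.003). Adamts16 had another order, with 188, 165 and 253 in PEG, 95.6, 79.6 and 116 in NC, and 426 and 394 in Unop. PEG was 2.07-fold above NC (1.05 ± 0.21, adjusted p = 0.00794), and both graft groups were below every Unop nerve.

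Adamts6, which with Adamts10 acts on the fibrillin microfibrils of the matrix, was 175, 252 and 171 in PEG, 110, 92.5 and 120 in NC, and 106.2 and 116 in Unop. PEG was 1.83-fold above NC (log2 fold change 0.87 ± 0.20, adjusted p = 0.0149, limma), while NC and Unop overlapped. Without PEG 2 its log2 fold change was 0.69 and its adjusted p 0.0542. Adamts19 was 128, 344 and 201 in PEG and 76.9, 57.0 and 119 in NC, with 10.7 and 18.8 in Unop. The 2.55-fold difference between PEG and NC (1.35 ± 0.42, adjusted p = 0.0438) was lost in more alternatives than that of any other ADAMTS. It missed the threshold when PEG 2, PEG 3, NC 1, NC 2 or either Unop nerve was left out, with log2 fold changes of 0.99, 1.37, 1.32, 1.11, 1.35 and 1.35 and adjusted p of 0.145, 0.102, 0.0874, 0.116, 0.0518 and 0.0527. Of the 3 procollagen N-proteinases, Adamts2, which trims the amino end of fibrillar procollagens, was called higher in PEG, at 2726, 3670 and 3417 against 1740, 2414 and 2078 in NC. Leaving out PEG 2, PEG 3, NC 1 or NC 3 ended that call (adjusted p between 0.0544 and 0.0829). Adamts3 and Adamts14, of the same group, were not called in limma on all 8 libraries, but DESeq2 called Adamts14 higher in PEG (adjusted p = 0.0187). In Adamts14 the PEG libraries were uneven, at 953, 2261 and 906, all above the NC values of 598, 796 and 757.

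**Figure D2:**
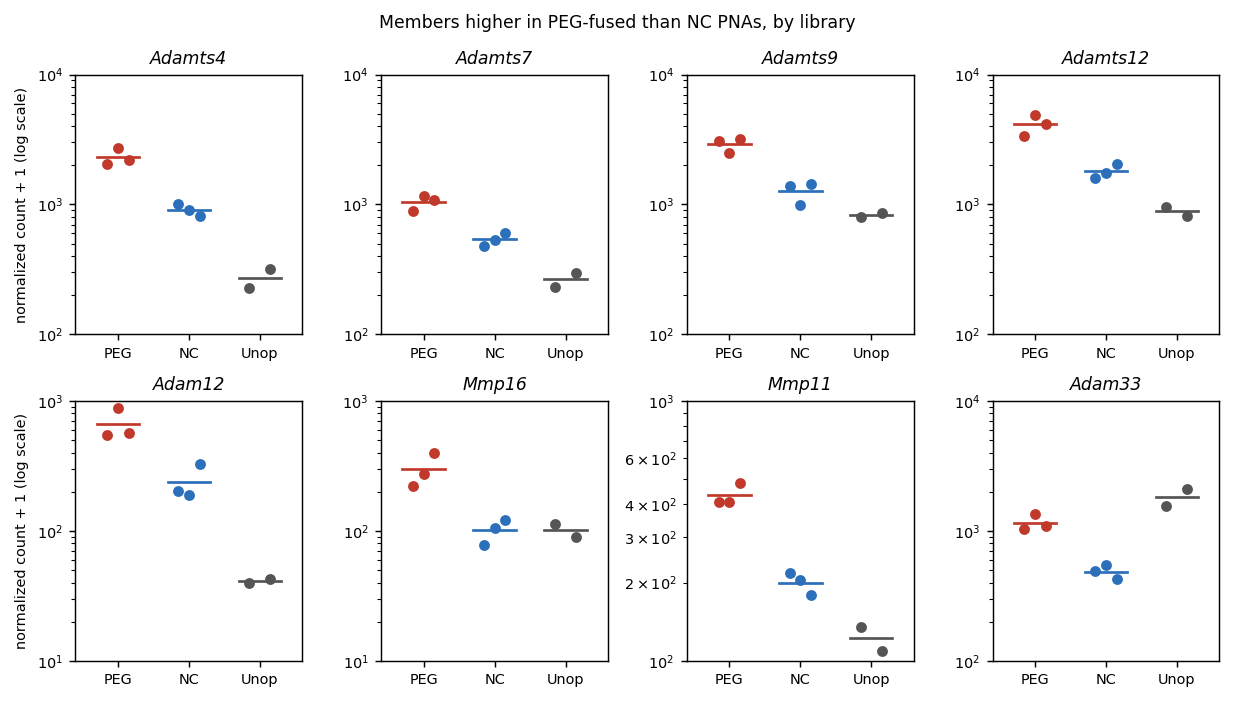
Normalized count + 1 on a log axis for 8 members called higher in PEG than NC, by library (points), with the group mean as a line. The axes differ between panels. In each panel the 3 PEG points lie above the 3 NC points. Unop lies lowest in 6 panels, within the NC range for Mmp16 and highest for Adam33.

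Among the MMPs, the membrane-anchored Mmp16 (MT3-MMP) had the largest fold among the members called higher in PEG. It was 220, 275 and 395 in PEG, 76.9, 104 and 121 in NC, and 112 and 88.8 in Unop, a 2.89-fold difference between PEG and NC (log2 fold change 1.53 ± 0.26, adjusted p = 0.00439, limma). The Unop nerves lay inside the NC range. Mmp11 (stromelysin-3), which furin activates inside the cell and which fibroblasts are known to make during tissue remodelling, was 409, 409 and 482 in PEG, 216, 203 and 177 in NC, and 134 and 107.6 in Unop. PEG was 2.17-fold above NC (1.12 ± 0.15, adjusted p = 0.00187), with no overlap among the 3 groups. Mmp23, a membrane MMP with an unusual toxin-like domain, was 1600, 2336 and 1926 in PEG, 579, 994 and 998 in NC, and 2230 and 1966 in Unop. Here NC stood apart, 2.32-fold below PEG (1.21 ± 0.23, adjusted p = 0.00593), while PEG and Unop overlapped.

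The gelatinase Mmp2, which cuts type IV collagen and denatured collagens and is known in growing nerve, was 40846, 44720 and 48678 in PEG, 23120, 26526 and 32828 in NC, and 12845 and 9649 in Unop. Every PEG library was above every NC library, and every NC library was above Unop. The PEG to NC difference was 1.64-fold (log2 fold change 0.71 ± 0.17, adjusted p = 0.0146, limma), and without PEG 3 it was 0.65 at an adjusted p of 0.0559. Mmp28 (epilysin), an MMP known from developing and injured nerve, was 151, 142 and 146 in PEG, 66.1, 107 and 79.1 in NC, and 1406 and 1562 in Unop. PEG was 1.77-fold above NC (0.82 ± 0.19, adjusted p = 0.013), a difference far smaller than the gap of both to Unop. With NC 2 as the only NC library the Mmp28 log2 fold change was 0.46 and its adjusted p 0.111. Mmp19 was called higher in PEG, with 2044, 2387 and 2182 against 1439, 1489 and 1782, but missed the threshold without PEG 1, PEG 2, PEG 3, NC 1 or NC 2 (adjusted p 0.0546, 0.114, 0.0828, 0.0793 and 0.0798). The other gelatinase, Mmp9, overlapped between the grafts.

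Of the ADAMs, Adam12, which sheds heparin-binding EGF and is made by fusing myoblasts and activated fibroblasts, was 540, 885 and 560 in PEG, 203, 188 and 323 in NC, and 38.6 and 41.3 in Unop. That is 2.78-fold between PEG and NC (log2 fold change 1.48 ± 0.26, adjusted p = 0.00494, limma), with the 3 groups apart. Of the NC libraries, NC 2, low in muscle RNA, was lowest and NC 3 highest. Adam33, a relative of Adam12 and Adam19 known from fibroblasts and smooth muscle, was 1033, 1339 and 1089 in PEG, 487, 542 and 425 in NC, and 1552 and 2095 in Unop. PEG was 2.37-fold above NC (1.25 ± 0.16, adjusted p = 0.00133) and the Unop nerves were above both. Adam9, a widely expressed sheddase, was 4912, 5041 and 5486 in PEG and 4017, 3374 and 4655 in NC. The call (adjusted p = 0.0475) was lost without any single library other than NC 3, with adjusted p between 0.0648 and 0.147. Adam18, best known from testis, was the member called lower in PEG, at 5.56, 0 and 1.88 against 13.4, 10.8 and 15.4 in NC. These are the lowest counts of any member called between PEG and NC, its log2 fold change was -2.40 ± 0.74 (adjusted p = 0.043), and edgeR gave an adjusted p of 0.0551. Adam18 passed the count filter through its NC libraries alone, the group where it is high, so the filter favours this call. Without PEG 2, PEG 3, NC 1, NC 2 or NC 3 the log2 fold change was -1.70, -2.46, -2.38, -2.53 and -2.29, with adjusted p of 0.121, 0.0949, 0.0859, 0.0736 and 0.110.

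**Figure D3:**
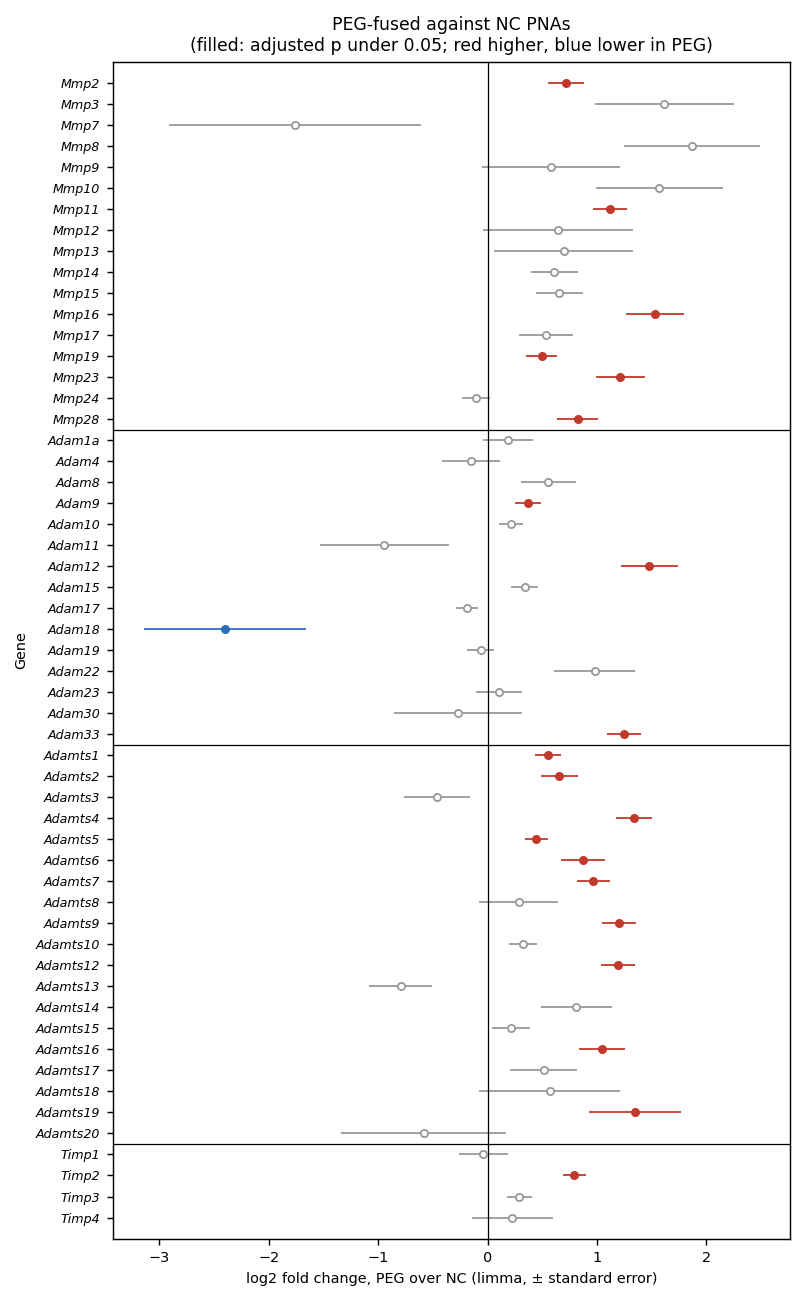
Log2 fold change of PEG over NC for the 55 members (limma, ± SE), in the order MMPs, ADAMs, ADAMTSs and TIMPs. Filled points passed an adjusted p of 0.05, red higher (20 members) and blue lower (Adam18). A further 23 points that did not pass lie to the right of 0 and 11 to the left, with wide error bars for Mmp3, Mmp7, Mmp8, Adam11 and Adamts20.

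In 34 members no difference between PEG and NC passed the threshold in limma on all 8 libraries, 23 with a log2 fold change above 0 and 11 below. They include the shedding enzymes Adam17, which releases TNF and many receptors, and Adam10, which cuts Notch and many adhesion proteins. Adam17 was 5774, 5686 and 6527 in PEG and 7673, 6229 and 6645 in NC, and the groups overlapped. Adam10 was 4420, 4629 and 4287 in PEG and 3408, 4075 and 4033 in NC, without overlap. Mmp14 (MT1-MMP), which activates pro-MMP2 at the cell surface, was 6764, 10431 and 8920 in PEG and 4043, 6770 and 6454 in NC. PEG 1 lay just below NC 2, and the difference was not called in limma on all 8 libraries (adjusted p = 0.0683). Mmp14 was called higher in PEG with DESeq2 (adjusted p = 0.0273), and in limma with the replicate block (0.0402) and without PEG 1 (0.0442).

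The second question was how each kind of graft differed from unoperated nerve. Against Unop, 30 members were higher and 11 lower in PEG (29.1% and 28.6% of tested genes), and 27 were higher and 15 lower in NC (32.2% and 32.3%). The median log2 fold change of the members was 0.95 for PEG, beside 0.01 over all genes, and 0.84 for NC, beside 0.02. With a log2 fold change above 1 or below -1 demanded as well, 26 were higher and 7 lower in PEG (16.7% and 15.6%), and 22 were higher and 12 lower in NC (19.6% and 19.0%). The comparisons share the 2 Unop nerves. For the MMPs, 13 of 17 were higher and 3 lower in PEG, and 12 were higher and 4 lower in NC. The ADAMTSs counted 11 of 19 higher and 3 lower in PEG, and 9 and 4 in NC. The ADAMs counted 5 of 15 higher and 2 lower in PEG, and 5 and 4 in NC. Of the TIMPs 1 was higher and 3 were lower in each graft group. Mean counts were under 10 in Unop for 8 members (Mmp3, Mmp7, Mmp10, Mmp13, Adam18, Adam30, Adamts13 and Adamts18), which passed the count filter only with the help of a graft library. For these 8 the filter favours a call above Unop, and they are part of the counts and medians given here. Mmp8, at 30.0 and 6.25 in Unop, also needed a graft library to pass, so the filter favours its call above Unop too.

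Several of the members with wide gaps to Unop lie in a run of neighbouring MMP genes on chromosome 8. Among them Mmp3, Mmp7, Mmp8, Mmp10 and Mmp13 passed the count filter only with the help of graft libraries. In the RefSeq gene order of assembly GRCr8 the run holds 10 genes (Mmp13, Mmp12, Mmp1b, Mmp3, Mmp1, Mmp10, Mmp8, Mmp27, Mmp20 and Mmp7), of which 6 were members. All 6 were called higher in PEG than Unop and in NC than Unop, and none was called between PEG and NC in limma on all 8 libraries. In the 18 other fits Mmp8 was called higher in PEG in 6 and Mmp3 in 3, and Mmp10 in 1 of 17. Mmp10 passed the count filter only with the help of PEG libraries, so the filter favours that direction. Those of Mmp3 include DESeq2 (adjusted p = 0.0319) and limma without PEG 1 (adjusted p = 0.0493). The start regions of these 6 genes are shown because all 6 hold a TATA motif and 5 an AP-1 motif. Each sequence is the 120 bases before the RefSeq start of the gene on the plus strand of GRCr8, not the build of the read counts, and runs 5′ to 3′. Capitals mark the AP-1 motif (TGAGTCA or, on the other strand, TGACTCA) and the TATA motif (TATAAA or TTTATA). The regions are, in the order of the lines, chr8:12782709-12782828, chr8:12866532-12866651, chr8:12925161-12925280, chr8:12974587-12974706, chr8:13008770-13008889 and chr8:13132923-13133042.
Mmp13: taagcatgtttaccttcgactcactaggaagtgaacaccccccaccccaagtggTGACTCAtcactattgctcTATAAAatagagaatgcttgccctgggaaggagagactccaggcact
Mmp12: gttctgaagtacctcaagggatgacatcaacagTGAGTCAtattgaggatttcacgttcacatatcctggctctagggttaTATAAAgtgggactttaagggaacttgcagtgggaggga
Mmp3: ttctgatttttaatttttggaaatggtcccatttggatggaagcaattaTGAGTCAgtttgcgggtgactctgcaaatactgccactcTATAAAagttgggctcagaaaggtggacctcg
Mmp10: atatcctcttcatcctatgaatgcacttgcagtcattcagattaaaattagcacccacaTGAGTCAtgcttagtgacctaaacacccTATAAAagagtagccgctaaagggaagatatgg
Mmp8: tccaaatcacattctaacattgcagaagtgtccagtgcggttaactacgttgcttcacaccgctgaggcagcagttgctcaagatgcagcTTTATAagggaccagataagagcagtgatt
Mmp7: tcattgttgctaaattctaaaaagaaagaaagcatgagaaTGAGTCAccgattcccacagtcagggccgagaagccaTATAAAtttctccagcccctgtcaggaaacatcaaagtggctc
AP-1, the dimer of Fos and Jun proteins, is a long-known activator of several MMP genes, and TATA is the element that positions the start of transcription in a minority of genes. In the window from 250 bases before to 50 after the start, the AP-1 letters were in 5 of the 6 promoters, all but that of Mmp8, and in 4.53% of 27457 promoters of that length. They began between 61 and 87 bases before the start, at 66 in Mmp13, 87 in Mmp12, 71 in Mmp3, 61 in Mmp10 and 80 in Mmp7. The TATA letters were in 6 of 6 and in 14.3% of all promoters, with the match nearest the start beginning 30 to 47 bases before it. Of the 4 genes of the run below the count filter, Mmp1 held both motifs and Mmp20 the TATA letters, while Mmp1b and Mmp27 held neither. The motifs were thus not limited to the genes that were members. Of the 39 members with a promoter entry, 6 held the AP-1 letters (the sixth was Adam19) and 9 the TATA letters. These are matches of letters, and no binding was measured.

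Mmp12 (macrophage elastase) was 4672, 5382 and 16319 in PEG, 5177, 4552 and 4554 in NC, and 261 and 37.5 in Unop. Against Unop that was 74.0-fold in PEG (log2 fold change 6.21 ± 0.77, adjusted p = 0.000213, limma) and 47.3-fold in NC (5.56 ± 0.77, adjusted p = 0.000298). PEG 3 stood above the other 5 grafts, which lay between 4552 and 5382, and the Unop nerves differed from each other by 6.95-fold. Mmp8 (neutrophil collagenase) was 2126, 1203 and 1594 in PEG, 999, 278 and 303 in NC, and 30.0 and 6.25 in Unop. It was 107-fold above Unop in PEG (6.73 ± 0.70, adjusted p = 7.78e-05) and 29.3-fold in NC (4.87 ± 0.70, adjusted p = 0.000363). All PEG libraries were above all NC libraries. The difference between the grafts was not called in limma on all 8 libraries (adjusted p = 0.0546), but was called without NC 1, Unop 1 or Unop 2 (adjusted p = 0.0156, 0.0340 and 0.0343). The 6 neutrophil markers listed summed to 706 to 1077 in PEG, 1357 to 1951 in NC and 404 to 515 in Unop, a sum held mostly by Csf3r in the grafts and by Mpo in Unop. Of the 5 tested, Csf3r, Cxcr2 and Mpo were called lower in PEG than NC, while S100a8 and S100a9 overlapped, and Mpo had no read in PEG 1 and PEG 2. Their part in the level of Mmp8 was not tested.

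Mmp3 (stromelysin-1), which cuts proteoglycans and activates other MMPs, was 90.8, 300.1 and 249.5 in PEG, 23.2, 116 and 83.9 in NC, and 5.37 and 5.003 in Unop. Against Unop its log2 fold change was 4.95 ± 0.71 in PEG (adjusted p = 0.000495, limma) and 3.33 ± 0.71 in NC (adjusted p = 0.0034). Mmp7 (matrilysin) was the most uneven member, at 467, 36.5 and 64.7 in PEG, 131, 1081 and 312 in NC, and 6.44 and 0 in Unop. Its libraries spread 12.8-fold within PEG and 8.23-fold within NC. The log2 fold change against Unop was 5.26 ± 1.29 in PEG (adjusted p = 0.00795) and 7.02 ± 1.29 in NC (adjusted p = 0.00152). Without Unop 2 the value for PEG was 3.82 at an adjusted p of 0.0812. Mmp13 (collagenase-3) and Mmp10 (stromelysin-2) had only 1 read each in the Unop nerves together. Mmp13 was 51.0, 137 and 133 in PEG and 25.0, 110 and 78.1 in NC, and its ratio to Unop was 185 in PEG (95% counting interval 33.0 to 7339) and 118 in NC (21.0 to 4699). Mmp10 was 12.0, 29.9 and 23.5 in PEG and 2.68, 10.8 and 7.72 in NC, with ratios of 37.7 (6.55 to 1510) and 11.8 (1.90 to 487). The intervals cover counting error only. Mmp3, Mmp7, Mmp10 and Mmp13 passed the count filter through graft libraries alone, so the filter favours a call above Unop. Outside PEG only NC 2 reached 10 for Mmp10, so for that gene the filter also favours PEG over NC. The NC call for Mmp10 was lost without Unop 2 (log2 fold change 1.80, adjusted p = 0.0895). Within this run Mmp27 was the reverse, with 12 and 5 reads in Unop and 0 to 4 in each graft, too few to be a member.

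**Figure D4:**
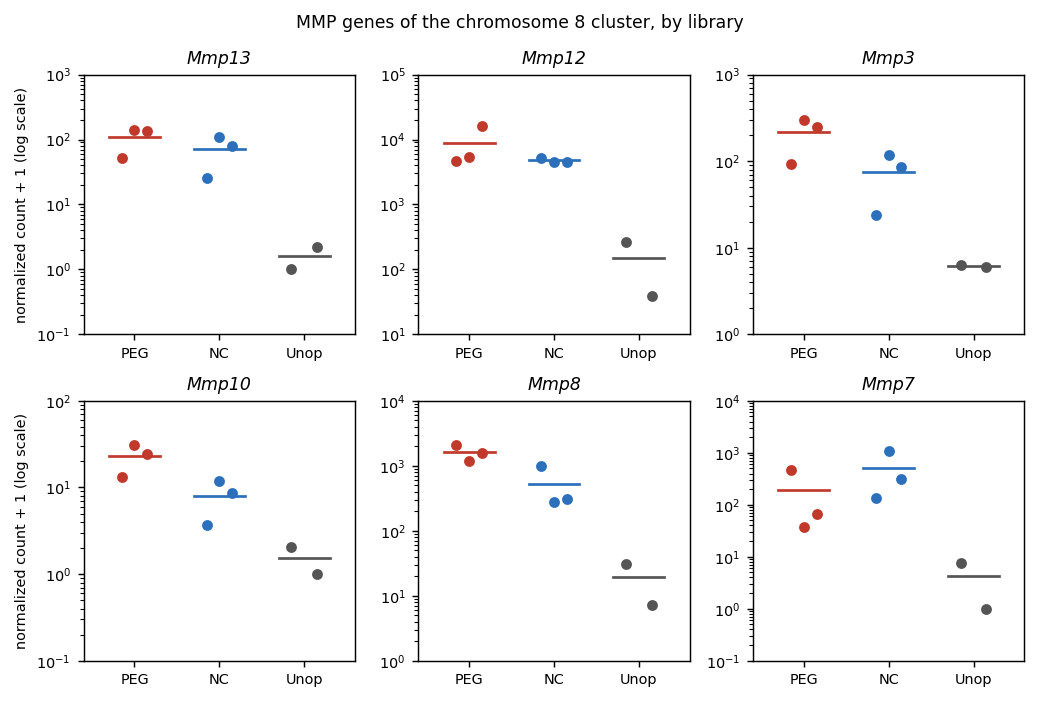
Normalized count + 1 on a log axis for the 6 tested MMP genes of the chromosome 8 run, in gene order, by library (points) with group means (lines). The axes differ between panels. All graft points lie above all Unop points in each panel, and PEG and NC points overlap for Mmp13, Mmp12, Mmp3 and Mmp7 but not for Mmp10 and Mmp8. Mmp10 passed the count filter only with the help of PEG libraries.

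Outside the run, Mmp9 (gelatinase B), made by neutrophils, macrophages and injured Schwann cells, was 538, 1392 and 3368 in PEG, 910, 1181 and 706 in NC, and 66.5 and 23.8 in Unop. Against Unop that was 33.3-fold in PEG (log2 fold change 5.06 ± 0.70, adjusted p = 0.000415, limma) and 22.3-fold in NC (4.48 ± 0.70, adjusted p = 0.00063). PEG spread 6.26-fold within the group. Mmp17 (MT4-MMP, held to the membrane by a lipid anchor) was 818, 1006 and 685 in PEG, 592, 728 and 429 in NC, and 203 and 133 in Unop. It was 5.01-fold above Unop in PEG (2.33 ± 0.27, adjusted p = 0.000157) and 3.46-fold in NC (1.79 ± 0.27, adjusted p = 0.000515). Mmp2, Mmp11, Mmp14 and Mmp19 were also called higher than Unop in each graft group, for Mmp14 in NC not without Unop 1 or Unop 2 (adjusted p = 0.0671 and 0.0781).

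The MMPs that were lower in grafts than in unoperated nerve were Mmp28, Mmp24 and Mmp15, and in NC also Mmp23. Mmp28 fell 10.1-fold in PEG (log2 fold change -3.33 ± 0.21, adjusted p = 6.14e-06, limma) and 17.8-fold in NC (-4.15 ± 0.21, adjusted p = 1.53e-06). Mmp24 (MT5-MMP, found chiefly in the nervous system) was 551, 429 and 469 in PEG, 590, 488 and 480 in NC, and 2428 and 2453 in Unop. Both graft groups were far below Unop and overlapped each other, with log2 fold changes of -2.34 ± 0.14 in PEG (adjusted p = 5.35e-06) and -2.24 ± 0.14 in NC (adjusted p = 3.95e-06). Mmp15 (MT2-MMP) was 2255, 2418 and 2008 in PEG, 1987, 1405 and 1004 in NC, and 5872 and 5356 in Unop. It fell 2.52-fold in PEG (-1.34 ± 0.24, adjusted p = 0.0017) and 3.97-fold in NC (-1.99 ± 0.24, adjusted p = 0.000141). Between PEG and NC Mmp15 was not called in limma on all 8 libraries (adjusted p = 0.0531). It was called higher in PEG in some other fits, among them DESeq2 (0.0272) and limma without NC 1 (0.00599). Mmp23 was 2.52-fold lower in NC than Unop (-1.33 ± 0.25, adjusted p = 0.00179) and overlapped Unop in PEG. The summed Schwann cell markers fell in the grafts beside these genes, and their part in these values was not tested.

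ADAM sheddases moved in both directions against Unop. Adam8, a protease of myeloid cells, was 1249, 1625 and 2012 in PEG, 743, 1418 and 1218 in NC, and 82.6 and 87.6 in Unop. That was 18.6-fold in PEG (log2 fold change 4.22 ± 0.28, adjusted p = 8.43e-06, limma) and 12.6-fold in NC (3.66 ± 0.28, adjusted p = 1.12e-05). The 7 macrophage markers summed to 57620 to 66562 in PEG, 74239 to 85896 in NC and 12580 to 16356 in Unop, and their part in the level of Adam8 or Mmp12 was not tested. Adam12 was 15.8-fold above Unop in PEG (3.98 ± 0.29, adjusted p = 1.29e-05) and 5.67-fold in NC (2.50 ± 0.29, adjusted p = 0.000111). Adam17 and Adam19, at 2863 and 2869 and at 1661 and 1501 in the Unop nerves, were called higher in each graft group, where Adam17 lay between 5686 and 7673 and Adam19, which cuts neuregulins, between 4504 and 5978. Adam10 fell, from 7385 and 9165 in Unop to a log2 fold change of -0.89 ± 0.12 in PEG (adjusted p = 0.000384) and -1.10 ± 0.12 in NC (adjusted p = 8.18e-05). Adam33 fell by 0.65 on the log2 scale in PEG (SE 0.17, adjusted p = 0.0117) and by 1.90 in NC (SE 0.17, adjusted p = 2.79e-05). Without Unop 2 the Adam33 value in PEG was -0.44 at an adjusted p of 0.1001.

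Adam22, Adam23 and Adam11 are ADAMs without protease activity that serve as receptors of LGI proteins, and the pair of Lgi4 and Adam22 is needed for myelination of peripheral nerve. Adam22 was 61.2, 83.2 and 111 in PEG, 34.9, 37.7 and 54.0 in NC, and 73.0 and 31.3 in Unop. It was called in no comparison in limma on all 8 libraries, but was called higher in PEG than NC without Unop 1 or Unop 2 (adjusted p = 0.0477 and 0.0463) and higher in PEG than Unop without Unop 1 (adjusted p = 0.0319). Adam23 was 215, 302 and 275 in PEG, 320, 198 and 226 in NC, and 428 and 359 in Unop. It was called lower in NC than Unop (log2 fold change -0.69 ± 0.24, adjusted p = 0.0312, limma), but not without NC 2, NC 3, Unop 1 or Unop 2 (log2 fold change -0.54, -0.64, -0.56 and -0.82, adjusted p 0.0790, 0.0788, 0.162 and 0.0596). Adam15, a sheddase of endothelium and other cells, was 2089, 2318 and 2586 in NC and 3808 and 2854 in Unop, a log2 fold change of -0.51 ± 0.14 (adjusted p = 0.0123) that became -0.30 without Unop 1 (adjusted p = 0.0964). Adam18, which passed the count filter through NC libraries alone, had 2 reads in the Unop nerves. Its ratio to Unop was 11.5 in NC (95% counting interval 2.99 to 98.2), a direction that the filter favours. The call was lost without Unop 2 (log2 fold change 2.16, adjusted p = 0.0988).

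Among ADAMTSs, Adamts4 was 8.53-fold above Unop in PEG (log2 fold change 3.09 ± 0.18, adjusted p = 5.2e-06, limma), and it was called higher in NC as well. Adamts15, a versican- and aggrecan-cutting enzyme, was 2215, 1954 and 2051 in PEG, 1418, 1674 and 2396 in NC, and 445 and 454 in Unop. It was 4.60-fold above Unop in PEG (2.20 ± 0.19, adjusted p = 3.36e-05) and 3.96-fold in NC (1.99 ± 0.19, adjusted p = 4.04e-05). Adamts8 was 146, 205 and 117 in PEG, 115, 122 and 139 in NC, and 36.5 and 13.8 in Unop, with log2 fold changes of 2.70 ± 0.40 (adjusted p = 0.000574) and 2.42 ± 0.40 (adjusted p = 0.000829). Adamts19 had log2 fold changes of 3.77 ± 0.47 in PEG (adjusted p = 0.000223) and 2.42 ± 0.47 in NC (adjusted p = 0.00206), and Adamts3 one of 1.97 ± 0.34 in NC (adjusted p = 0.000999). Adamts12 was 4.64-fold above Unop in PEG (2.21 ± 0.17, adjusted p = 1.75e-05).

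Adamts20, a relative of Adamts9, fell most of the ADAMTSs. It was 77.9, 43.0 and 115 in PEG, 261, 30.1 and 166 in NC, and 675 and 1402 in Unop. Its log2 fold change was -3.72 ± 0.84 in PEG (adjusted p = 0.00531, limma) and -3.14 ± 0.84 in NC (adjusted p = 0.0107). Without Unop 2 these were -3.19 at an adjusted p of 0.0531 and -2.61 at 0.0890. Adamts9, by contrast, was called higher than Unop in PEG. Adamts16 fell by 1.04 in PEG (SE 0.23, adjusted p = 0.00519) and by 2.08 in NC (SE 0.23, adjusted p = 8.86e-05) on the log2 scale. Adamts5 fell by 0.69 (SE 0.12, adjusted p = 0.00111) and by 1.14 (SE 0.12, adjusted p = 5.14e-05). Adamts2 was lower than Unop in NC alone among the calls, by 0.73 (SE 0.19, adjusted p = 0.00865), which was 0.52 at an adjusted p of 0.0824 without Unop 1.

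The 4 TIMPs did not share a direction. Timp1, the TIMP most readily induced by inflammation, was 11792, 14278 and 9923 in PEG, 9268, 11815 and 16567 in NC, and 6957 and 5391 in Unop. It was 1.94-fold above Unop in PEG (log2 fold change 0.95 ± 0.25, adjusted p = 0.0108, limma) and 1.99-fold in NC (0.99 ± 0.25, adjusted p = 0.00784), and both calls were lost without Unop 2 (0.77 at an adjusted p of 0.0901 and 0.81 at 0.0714). PEG and NC overlapped, with a log2 fold change of -0.04 ± 0.22 whose sign turned when PEG 3 (0.09) or NC 3 (0.18) was left out. Timp2, which forms a complex with Mmp14 to activate pro-MMP2 and at higher amounts inhibits it, was 14952, 18114 and 17064 in PEG, 9175, 10362 and 9351 in NC, and 23039 and 20879 in Unop. The 3 groups were apart in the order Unop, PEG, NC. PEG was 1.73-fold above NC (0.79 ± 0.11, adjusted p = 0.00163), and NC was 2.28-fold below Unop (-1.19 ± 0.12, adjusted p = 4.29e-05). The smaller difference of PEG from Unop (-0.40 ± 0.12, adjusted p = 0.0187) was not called without PEG 1 (-0.32, adjusted p = 0.0620) or Unop 1 (-0.33, adjusted p = 0.1001).

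Timp3, which is bound to matrix and inhibits ADAM17 and aggrecanases as well as MMPs, was 5303, 6004 and 5900 in PEG, 4779, 4050 and 5308 in NC, and 18923 and 21132 in Unop. It was 3.49-fold below Unop in PEG (log2 fold change -1.80 ± 0.13, adjusted p = 1.11e-05, limma) and 4.27-fold in NC (-2.09 ± 0.13, adjusted p = 3.53e-06). The graft groups overlapped narrowly (0.29 ± 0.11 between PEG and NC, adjusted p = 0.0927). Timp4 was 403, 154 and 355 in PEG, 231, 180 and 332 in NC, and 1152 and 893 in Unop. It was 3.61-fold below Unop in PEG (-1.85 ± 0.41, adjusted p = 0.00508) and 4.21-fold in NC (-2.08 ± 0.41, adjusted p = 0.00238), with overlap between the grafts (0.22 ± 0.37, adjusted p = 0.686). Timp1, Timp3 and Timp4 overlap synapsin genes, and the strand setting of the counting is not given in the sources used here. The synapsin genes themselves were low, at 20.4 to 60.1 for Syn1, 11.6 to 126 for Syn3 and 9.27 to 68.8 for Syn2.

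Set against its inhibitor, Mmp2 gave 2.47 to 2.85 normalized counts for each count of Timp2 in PEG and 2.52 to 3.51 in NC, against 0.46 to 0.56 in Unop. The graft groups overlapped and both were above Unop, although Mmp2 and Timp2 were each higher in PEG than NC. Mmp14 to Timp2 gave 0.45 to 0.58 in PEG, 0.44 to 0.69 in NC and 0.14 to 0.15 in Unop. Timp1 to Timp3 was 1.68 to 2.38 in PEG, 1.94 to 3.12 in NC and 0.26 to 0.37 in Unop. The 4 TIMPs together summed to 32450 to 38550 in PEG, 23453 to 31558 in NC and 48295 to 50069 in Unop, and the 3 groups did not overlap. These ratios are of counts not corrected for length and serve to compare libraries with each other.

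**Figure D5:**
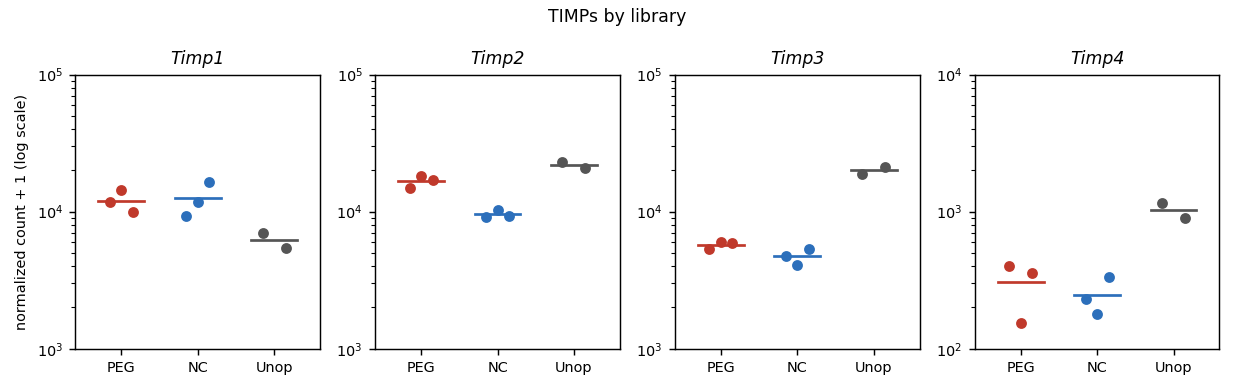
Normalized count + 1 on a log axis for the 4 TIMPs by library (points) with group means (lines). The axis of Timp4 covers lower values than the others. Unop is lowest for Timp1 and highest for Timp2, Timp3 and Timp4. PEG and NC are apart for Timp2 alone.

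Genes that act with these proteases were read from lists of pathway genes. In plasminogen activation, the cascade whose plasmin activates several pro-MMPs, 2 of 8 genes were higher and 0 lower in PEG than NC. They were Plat, the tissue plasminogen activator (11363, 14175 and 12051 against 5968, 5520 and 4742, log2 fold change 1.21, adjusted p = 0.000623, limma), and Serpine2, the protease nexin that inhibits it (17993, 29857 and 21353 against 4068, 6256 and 4983, log2 fold change 2.17, adjusted p = 0.000623). The protease and an inhibitor of the same cascade were thus both higher in all PEG libraries. Of convertases that activate MMPs and ADAMs, 1 of 4 was higher (Pcsk5, log2 fold change 0.50, adjusted p = 0.0175). Of 9 regulators of ADAM10 and ADAM17, 3 were higher and 2 lower. Tspan17, a tetraspanin partner of ADAM10, was higher (0.96, adjusted p = 0.000589), as was Rhbdf1, an iRhom that carries ADAM17 to the surface (0.75, adjusted p = 0.0016), while another tetraspanin, Tspan33, was lower (-2.70, adjusted p = 0.0025).

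Of 9 other inhibitors, inducers and clearance factors, 2 were higher and 0 lower in PEG than NC. Reck, a membrane-anchored inhibitor of MMPs, was 1758, 2199 and 1942 in PEG, 1214, 1020 and 1156 in NC, and 7079 and 8451 in Unop (log2 fold change PEG to NC 0.80, adjusted p = 0.0023, limma). In this list 6 of 9 genes were lower than Unop in PEG and 6 in NC, beside 28.6% and 32.3% of tested genes. Bmp1, the procollagen C-proteinase, and its enhancer Pcolce were the 2 of 4 tolloid and meprin genes called higher in PEG (0.93, adjusted p = 0.00969, and 0.41, adjusted p = 0.0263). Of 10 matrix substrates 6 were higher and 0 lower in PEG than NC. Elastin (Eln) was 4086, 3561 and 5828 in PEG and 1974, 1878 and 1405 in NC (1.34, adjusted p = 0.00457), Col4a1 20977, 22696 and 20930 against 11898, 12947 and 15060 (0.70, adjusted p = 0.0046), and Col1a2 308, 588 and 388 against 200.2, 185 and 247 (0.98, adjusted p = 0.020). Of 13 shed substrates and ADAM ligands 1 was higher and 5 lower in PEG. Among those lower were 2 receptors that ADAMs cut, Tnfrsf1b (-0.94, adjusted p = 0.0012) and Il6r (-0.43, adjusted p = 0.0117). The counts between PEG and NC stand beside 15% higher and 13.9% lower over all tested genes.

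Marker lists of cell types that make these proteases moved as well between PEG and NC. Of fibroblast markers 2 of 5 were higher and 0 lower in PEG, summing to 255995 to 375362 in PEG and 146270 to 211258 in NC, without overlap. The Unop sums, 333797 and 245985, were above NC and overlapped PEG. Fbln1 alone of these markers had a log2 fold change below 0 (-0.81, mean 1615 in PEG and 3088 in NC), and it was not called. Of Schwann cell markers 4 of 6 were higher and 0 lower. Of T cell markers 6 of 6 were lower, summing to 1391 to 4063 in PEG, 16618 to 30995 in NC and 148 to 295 in Unop. Macrophage markers were lower in 4 of 7 and neutrophil markers in 3 of 5, with 0 higher in each list. Cd68, a macrophage marker, went the other way without overlap, at 20030, 20455 and 22451 in PEG and 14060, 18968 and 16383 in NC. It was not called (adjusted p = 0.264, limma), and Mrc1 and Itgam overlapped. Of 5 adipocyte markers 3, of 5 muscle markers 1 and of 4 endothelial markers 1 were lower. The part of any of these cell types in the values of the proteases and inhibitors was not tested.

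Of the 55 members, 8 were called in none of the 3 comparisons in limma on all 8 libraries (Adam1a, Adam4, Adam11, Adam22, Adam30, Adamts10, Adamts17 and Adamts18). Of these Adam11, Adam22, Adamts10 and Adamts18 were called in some of the other fits, Adam11 without NC 2 (lower in PEG than NC, adjusted p = 0.0425) and Adamts18 without NC 1, NC 3 or PEG 2 (higher in PEG than Unop, adjusted p = 0.0367, 0.0196 and 0.0356). By mean level 29 members stood highest in PEG, 10 in NC and 16 in Unop. Within groups the highest library was a median of 1.42-fold above the lowest in PEG (48 members), 1.43-fold in NC (48) and 1.19-fold in Unop (39). Members entered where the group mean was at least 50 and no library was at 0. The Unop value rests on 2 libraries and the others on 3, and a range over fewer libraries tends to be smaller. The 16 genes of these families below the count filter were Adam2, Adam3a, Adam5, Adam6, Adam7, Adam21, Adam24, Adam28, Adam32, Adam34, Adam34l, Mmp1, Mmp1b, Mmp20, Mmp21 and Mmp27. Of these 5 had 0 reads in every library, and the highest normalized count was 12.9 (Mmp27 in Unop 1). Nearest to the filter from inside were Adam18, Adam30, Adamts13 and Mmp10, with a second-highest library at 13.4, 14.5, 18.3 and 23.5, and from outside Mmp27 and Adam32, at 6.25 each.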

How the data were processed

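RNA of 8 sciatic nerve samples was sequenced (poly-A libraries, TruSeq Stranded mRNA, Illumina HiSeq). The authors used TopHat2 (genome Rnor 6.0), HTSeq for reads per gene and DESeq2 size factors as divisors. The deposited values (unit: signal) are these normalized counts. Tool versions, annotation release and strand setting are not given in the sources used here. The authors' fold changes and p-values were also deposited and were not used. Depth was 32472925 to 39959620 reads per library, and scaling by 1 constant per library turned 100% of the values into whole reads (tolerance 0.001). The 8 files of single samples matched their columns.

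A gene entered the test when 2 or more libraries reached a normalized count of 10, as 16478 genes did. The test was limma 3.58.1 (trend, group means, all 8 libraries, prior degrees of freedom 3.27) on log2(normalized count + 1) in R 4.3.3. A pseudocount of 1 understates the change of low genes. A member was called at a Benjamini-Hochberg adjusted p under 0.05 over all tested genes. As the deposited values are normalized, edgeR 4.0.16 (quasi-likelihood, TMM) and DESeq2 1.42.0 on the recovered reads were alternatives. Others were TMM factors, no filter, a filter of 50, a pseudocount of 8, only the 2 groups compared, a robust prior, a replicate block, a log2 fold change threshold of 1 and omission of each library. NC 2 alone as NC was added after seeing the data. The test was checked on simulated counts.

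Members and gene lists were chosen with earlier results of these data known. Fold changes are printed for members called in a comparison, at most 15 in each direction by size, and for the 4 TIMPs. Other members are given by level only, and of a pathway list up to 3 called genes by adjusted p. A few results are not reported here. Where Unop held 1 or 2 reads, ratios with 95% counting intervals replace fitted fold changes. Gene order and promoter sequences are RefSeq's for GRCr8 (55 members had a gene entry and 39 a promoter), and no coordinates of the counts' build are given. Tables and figures were made with pandas 2.3.3, NumPy 2.4.6, SciPy 1.17.1 and matplotlib 3.10.9 in Python 3.11.15.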

Additional observations from a re-analysis of the deposited data

How the results depend on the processing

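Of 77 fold changes of named members, 57 kept their direction and their side of the threshold in every alternative (11 of 19 for PEG against NC, 22 of 27 for PEG against Unop and 24 of 31 for NC against Unop). With the log2 fold change threshold of 1, 10 members in place of 20 were higher in PEG than NC, and 7 in place of 11 were lower in PEG than Unop. No member was lower in PEG than NC with edgeR, with DESeq2, with the filter of 50, which left Adam18 out, or with NC 2 alone as NC (0 in each, against 1 in limma). At an unadjusted p under 0.05 these fits held 2, 2, 0 and 0 lower members, beside 2 in limma. With 1 library left out, the calls ranged from 14 to 21 higher and 0 to 1 lower for PEG against NC, 27 to 32 and 9 to 12 for PEG against Unop, and 21 to 28 and 12 to 15 for NC against Unop. With 1 library left out, the log2 fold change between PEG and NC ranged from -0.24 to 0.18 for Timp1 and from -0.036 to 0.65 for Timp4. The sign of Timp1 between PEG and NC turned without PEG 3 (0.09), without NC 3 (0.18) and with NC 2 alone as NC (0.0062), and that of Timp4 without PEG 1 (-0.036), and the cause was not tested. Timp3 between PEG and NC passed the threshold with NC 2 alone as NC (0.50, adjusted p = 0.0436, limma).

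Replicate numbers occur in all groups, and the deviations of same-numbered libraries from their group means correlated by -0.05 to 0.16, 6 of 7 pairs above 0.1, while the pair PEG 3 and NC 3 was below 0. Since not every pair was above 0.1 and no label ties the numbers to a shared day or batch, the libraries were not treated as paired. In 12 of 14 comparisons a library correlated best with its own number, a hint from the data and not from the design. The 14 are not independent, as each pair is counted from both of its libraries and the deviations of the 2 Unop nerves mirror each other. A replicate block gave 23 higher and 1 lower for PEG against NC, 30 and 11 for PEG against Unop, and 26 and 14 for NC against Unop. Under the block the PEG against NC calls of Adamts19 and Mmp19 (adjusted p = 0.0540 and 0.0588) and the NC against Unop calls of Adam23 and Adamts13 (0.0730 and 0.0836) were lost, and Mmp8 and Mmp3 were called higher in PEG than NC (0.0095 and 0.0482). Only 2 Unop nerves were sequenced, and each comparison with them rests on a spread shared by the 3 groups. Genes with a few reads, such as Adam18 and Mmp10, are limited by depth.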
